A study of Mus musculus with 40 samples.

Results

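The oncofetal growth genes followed here at the chromatin level were Lin28a, Lin28b, Igf2bp1, Igf2bp2, Igf2bp3, Hmga1, Hmga2 and Igfbp5, which are 8 of the 55450 genes of the mouse annotation. They were chosen by name after promoter peaks of the same libraries had been seen, so the peaks that selected them are described below and carry no test. The cells were oligodendrocyte precursor cell (OPC) cultures, isolated by panning on an antibody to PDGFRa from pooled litters at postnatal days 5 to 7 and kept in proliferation medium without differentiation. K27M cultures came from litters that the labels call AMGFAP-Cre;K27M and the study's methods hGFAP-Cre, in which Cre driven by a GFAP promoter switches on a conditional H3.3 K27M allele, and control cultures came from littermates. The regions sampled were the brainstem (cultures 59 and 61) and the telencephalon, which the labels call cortex (cultures 59, 60 and 61). Within a region, each culture number gave 1 K27M and 1 control culture. Culture numbers 59 and 61 occur in both regions. By the paper the regions were separated from brains of the dissected litters. The regions of a culture number may therefore share pups, and the 5 pairs may not be independent. Pups were pooled by region and genotype, so that a culture is a pool and not an animal. By the paper, Cre is expressed in embryonic neural stem and progenitor cells. The lineages that descend from them carry the recombined allele, among them most glia and many neurons. H3K4me3 and H3K27me3 were each profiled by ChIP-seq in all 10 cultures, which gave 20 libraries.

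Lin28a and Lin28b encode RNA-binding proteins that block maturation of the let-7 microRNAs, and let-7 in turn represses Lin28, Igf2bp and Hmga2 transcripts. Igf2bp1, Igf2bp2 and Igf2bp3 encode proteins that bind and stabilize growth-related mRNAs, Hmga1 and Hmga2 encode chromatin proteins that bind AT-rich DNA, and Igfbp5 encodes a secreted protein that binds insulin-like growth factors. Most of these genes are active in fetal tissue, fall silent after birth and return in tumours. H3K4me3 marks active or poised promoters, H3K27me3 is written by the Polycomb repressive complex, which the K27M histone impairs, and a promoter that carries both marks is called bivalent.

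Across the 8 genes, promoter H3K4me3 and H3K27me3 sorted the members into 3 patterns. A promoter was the 3000 bp from 2000 bp upstream to 1000 bp downstream of a transcript start, and a gene was counted as marked when a peak touched the promoter of any of its transcripts. Lin28b, Igf2bp3 and Igfbp5 carried both marks in all 10 cultures, Lin28a and Igf2bp1 carried H3K27me3 in all 10 and H3K4me3 in 2, and Igf2bp2, Hmga1 and Hmga2 carried H3K4me3 in all 10 with H3K27me3 in 5, 3 and 0 of them. In all, 5 of 8 members had an H3K27me3 peak in every library and 6 of 8 an H3K4me3 peak, against 3.28% and 28.7% of all genes. Shares of all genes, here and below, run over 55450 annotated genes, of which 21951 are protein-coding. All 8 members are protein-coding, so most of that background is unlike them. Shares over protein-coding genes alone were not computed.

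**Figure D1:**
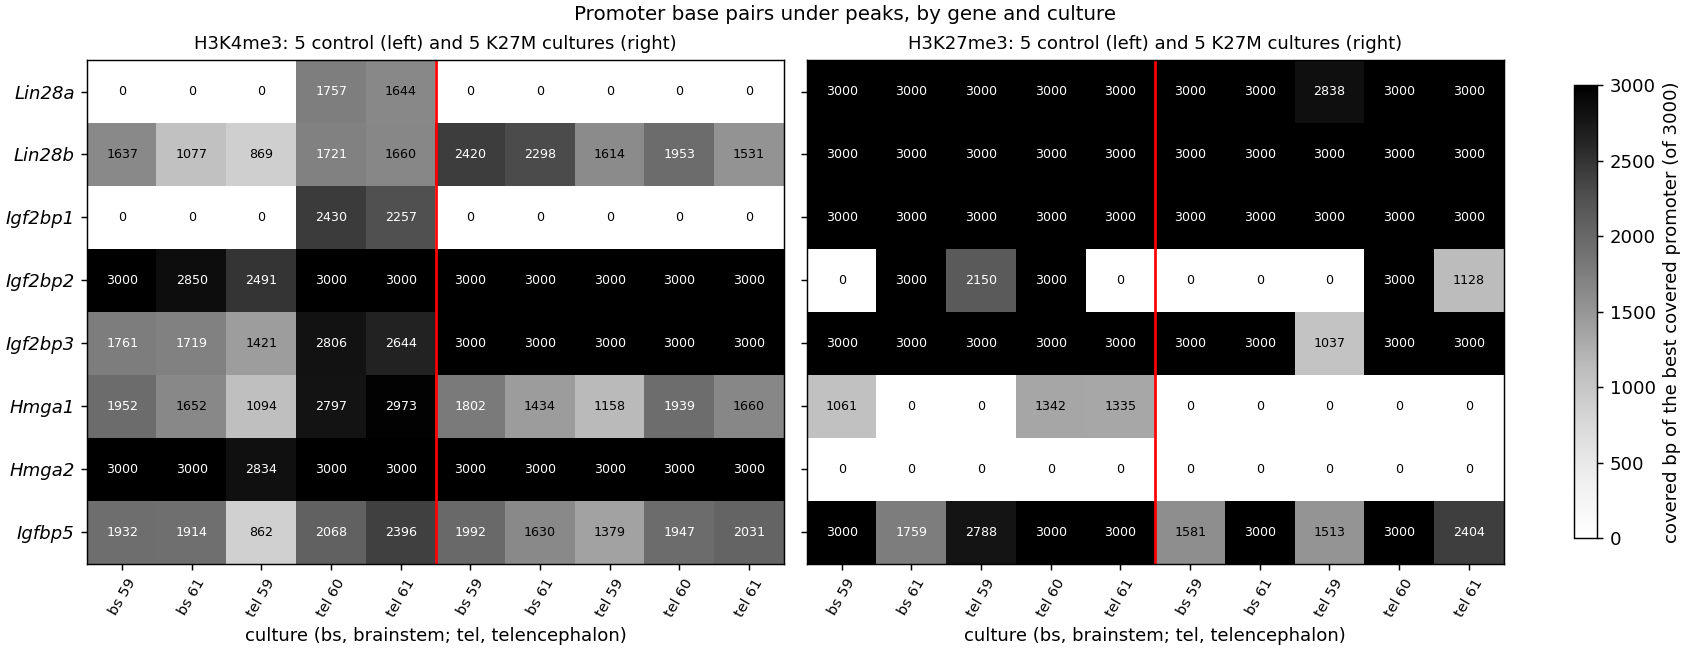
Base pairs of the best covered promoter of each gene under H3K4me3 peaks (left) and H3K27me3 peaks (right), of a possible 3000, in 5 control and 5 K27M cultures (bs, brainstem; tel, telencephalon). Lin28b, Igf2bp3 and Igfbp5 are marked in every column of both panels, and Hmga2 has 0 bp of H3K27me3 in all 10 cultures.

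The consensus of the control cultures required overlapping peaks of at least 2 cultures, at the promoter or elsewhere along a peak. By it, 3 of 8 members were bivalent in brainstem controls. In telencephalon controls 7 of 8 were. The same call was made at 4.60% and 7.31% of all genes. Lin28b, Igf2bp3 and Igfbp5 were bivalent in both regions. Lin28a and Igf2bp1 were H3K27me3 only in the brainstem and bivalent in the telencephalon, Igf2bp2 and Hmga1 were H3K4me3 only in the brainstem and bivalent in the telencephalon, and Hmga2 was H3K4me3 only in both. The telencephalic calls of Lin28a, Igf2bp1 and Hmga1 rested on cultures 60 and 61. Without culture 60, 3 of 8 members were bivalent in the telencephalon, and without culture 61, 4 of 8. The 2 regions had different numbers of control cultures, and the difference between them was not tested.

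No member lost its H3K27me3 promoter peak in every K27M culture of a region after carrying it in every control. In each region 5 members had a peak in both or all controls, and 0 of 5 were without a peak in the K27M cultures. These were the 5 members with a peak in every library, so the count restates that result. Among all genes marked in this way, 35.0% had a peak in no K27M culture of the brainstem and 17.8% in none of the telencephalon. Those genes were not matched to the members in peak strength. The count became 1 without brainstem culture 59 (Igf2bp2), brainstem culture 61 (Hmga1) or telencephalon culture 59 (Hmga1). Counted per culture, the number of members with an H3K27me3 peak was 1 lower in K27M than in the matched control in 4 of 5 pairs and equal in telencephalon culture 61, a mean difference of -0.8 ± 0.447 (SD, n = 5 pairs). Over all genes, a promoter H3K27me3 peak was present at 6.13% to 20.2% in control cultures and 3.76% to 7.42% in K27M cultures. For H3K4me3 the mean difference was also -0.8, with an SD of 1.10, the 2 extra members marked in telencephalon control cultures 60 and 61 being Lin28a and Igf2bp1. The H3K4me3 difference was -0.5 without telencephalon culture 60 or without 61, -0.2 with starts of protein-coding transcripts alone and 0 with peaks of a fold enrichment of at least 3.

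The libraries differed in ways that bear on these counts. Controls had 12715 to 64808 H3K27me3 peaks and K27M cultures 4739 to 15753, and the covered genome was 26.5 to 152 Mb and 13.3 to 41.4 Mb. H3K4me3 libraries held 20961 to 31200 peaks. The median fold enrichment of H3K4me3 peaks ran from 3.57 in telencephalon control culture 59 to 13.8 in telencephalon control culture 60, so fold enrichments of this mark are not on a common scale. The OPC markers Pdgfra, Cspg4, Olig1, Olig2, Sox10 and Gpr17 all had promoter H3K4me3 and no H3K27me3 in all 10 cultures. Of the markers of other cells, H3K4me3 was present in all 10 cultures at 0 of 5 microglial, 1 of 4 endothelial, 3 of 4 neuronal and 1 of 4 astrocytic genes. It was present in none at Aif1, Cx3cr1, Csf1r, Tmem119, Pecam1 and Cdh5. The remaining markers had it in part of the cultures: microglial P2ry12 in 8, endothelial Cldn5 in 5 and neuronal Slc17a7 in 9. Of the astrocytic markers, Gfap and Aldh1l1 had it in 6 each and Aqp4 in 1. Of those with H3K4me3 in all 10, Flt1, Rbfox3 and Gad1 also had promoter H3K27me3 in all 10 cultures, Gja1 in 7 and Snap25 in 2. The part of other cells in the results was not tested.

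Lin28a (chr4:134003330-134018841, minus strand) carried H3K27me3 over its start in all 10 cultures, in long domains in the controls and in short ones in the K27M cultures. The longest promoter peak measured 19.1 and 11.5 kb in brainstem control cultures 59 and 61, and 5185, 18490 and 21856 bp in telencephalon control cultures 59, 60 and 61. In the K27M cultures of the same order it measured 5.92, 5.76, 3.44, 6.15 and 5.01 kb. Each K27M peak was shorter than that of its own control, and only the control peak of telencephalon culture 59 lay within the K27M range. The geometric mean ratio of K27M to control was 0.379 (range 0.229 to 0.663, 5 pairs). The highest fold enrichment of a promoter peak was 6.67, 5.50, 2.83, 8.27 and 5.82 in controls. In K27M cultures it was 13.6, 13.8, 3.44, 11.2 and 10.98, higher in 5 of 5 pairs. A fold enrichment is a single value for a whole called peak, so peaks of unlike length were not compared over the same bases.

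Lin28a had no H3K4me3 promoter peak in any K27M culture. In the controls a peak was called in telencephalon culture 60 (1757 bp, fold enrichment 9.08) and culture 61 (longest 1330 bp, 10.2), wholly inside the H3K27me3 domain. These 2 libraries also had the highest median H3K4me3 fold enrichments, 13.8 and 10.1. By the read counts that the paper lists, they had the largest shares of duplicate reads among the H3K4me3 libraries. Duplicates were kept in peak calling, and the part of fold enrichment scale and of duplicates in the call was not tested. The 250 bases upstream of the RefSeq start are shown with CpG dinucleotides (the letters CG, the same on both strands) in capitals, because CpG-dense DNA is where both marks commonly settle. They hold 7 CpG, and 53.7% of 32851 RefSeq mouse promoters hold fewer.
Lin28a promoter, GRCm38, chr4:134018817-134019066, minus strand: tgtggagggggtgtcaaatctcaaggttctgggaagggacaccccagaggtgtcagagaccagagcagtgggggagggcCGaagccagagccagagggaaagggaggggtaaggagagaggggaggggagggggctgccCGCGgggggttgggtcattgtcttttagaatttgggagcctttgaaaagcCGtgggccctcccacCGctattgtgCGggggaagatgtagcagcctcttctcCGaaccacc

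Lin28b (chr10:45376620-45486395, minus strand) had promoter peaks of both marks in every culture, and its H3K27me3 domain covered both of its start regions. The longest H3K27me3 peak was 32.1 and 54.0 kb in the brainstem controls and 34.1, 43.3 and 44.8 kb in the telencephalon controls. In the K27M cultures it was 33.0, 30.2, 30.1, 32.6 and 29.9 kb, which is shorter in 4 of 5 pairs, with brainstem culture 59 as the exception. Over the gene and 20 kb on either side, H3K27me3 peaks covered 38.8 to 59.2 kb in controls and 30.1 to 33.5 kb in K27M cultures. These ranges did not overlap, and the share of all genes with such a separation was not computed. The upstream edge lay 5.59 to 6.16 kb before the outermost start in all 5 K27M cultures, whereas it lay at 16.5, 17.04 and 16.8 kb in brainstem control 61 and telencephalon controls 60 and 61, and at 6.78 and 7.31 kb in the other two controls. Fold enrichment was 6.86, 8.01, 6.46, 11.4 and 8.26 in controls and 11.4, 14.1, 8.07, 16.5 and 20.4 in K27M, higher in 5 of 5 pairs with a geometric mean ratio of 1.67.

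The H3K4me3 of Lin28b sat at a start that makes no protein-coding transcript in this annotation. All 10 cultures had a peak at the upstream start at position 45486395, 869 to 1721 bp long in controls and 1531 to 2659 bp in K27M cultures. At the protein-coding start, which lies 16.2 kb further into the gene, a peak was present in K27M cultures of brainstem 59 (2303 bp), brainstem 61 (801 bp) and telencephalon 60 (420 bp) and in 0 of 5 controls. With only starts of protein-coding transcripts counted, Lin28b was H3K27me3 only in the controls of both regions. The sequences before the upstream and the protein-coding start are shown because they differ in CpG content. The upstream start has 41 CpG in 250 bases (98.9% of RefSeq promoters hold fewer) and the protein-coding start has 6 (49.6% hold fewer).
Lin28b upstream start, GRCm38, chr10:45486396-45486645, minus strand: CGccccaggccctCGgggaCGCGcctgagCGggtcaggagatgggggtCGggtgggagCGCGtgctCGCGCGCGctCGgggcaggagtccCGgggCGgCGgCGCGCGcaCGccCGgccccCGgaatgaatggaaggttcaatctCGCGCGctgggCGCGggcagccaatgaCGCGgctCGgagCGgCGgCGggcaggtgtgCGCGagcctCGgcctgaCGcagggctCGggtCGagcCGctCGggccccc
Lin28b protein-coding start, GRCm38, chr10:45470202-45470451, minus strand: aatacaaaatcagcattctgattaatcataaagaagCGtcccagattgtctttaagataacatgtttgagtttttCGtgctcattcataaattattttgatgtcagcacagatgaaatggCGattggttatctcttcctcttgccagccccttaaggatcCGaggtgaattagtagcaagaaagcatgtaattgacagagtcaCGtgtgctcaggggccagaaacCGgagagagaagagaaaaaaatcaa

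Igf2bp1 (chr11:95957163-96005940, minus strand), whose product stabilizes mRNAs such as that of Myc, carried H3K27me3 domains of at least 25.2 kb in all 10 cultures. The longest peak was 52.4, 45.4, 26.0, 39.4 and 136 kb in controls of brainstem 59 and 61 and telencephalon 59, 60 and 61. In the matched K27M cultures it was 38.1, 35.7, 25.2, 36.3 and 34.2 kb, shorter in 5 of 5 pairs. The 136 kb peak of telencephalon control 61 ran 107 kb downstream of the start of a gene that is 48.8 kb long, so it covered neighbouring sequence too. Fold enrichment was 8.13, 8.15, 4.30, 13.7 and 7.11 in controls and 19.8, 23.2, 6.81, 18.9 and 19.5 in K27M, higher in 5 of 5 pairs with a geometric mean ratio of 2.11 (range 1.38 to 2.84).

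**Figure D2:**
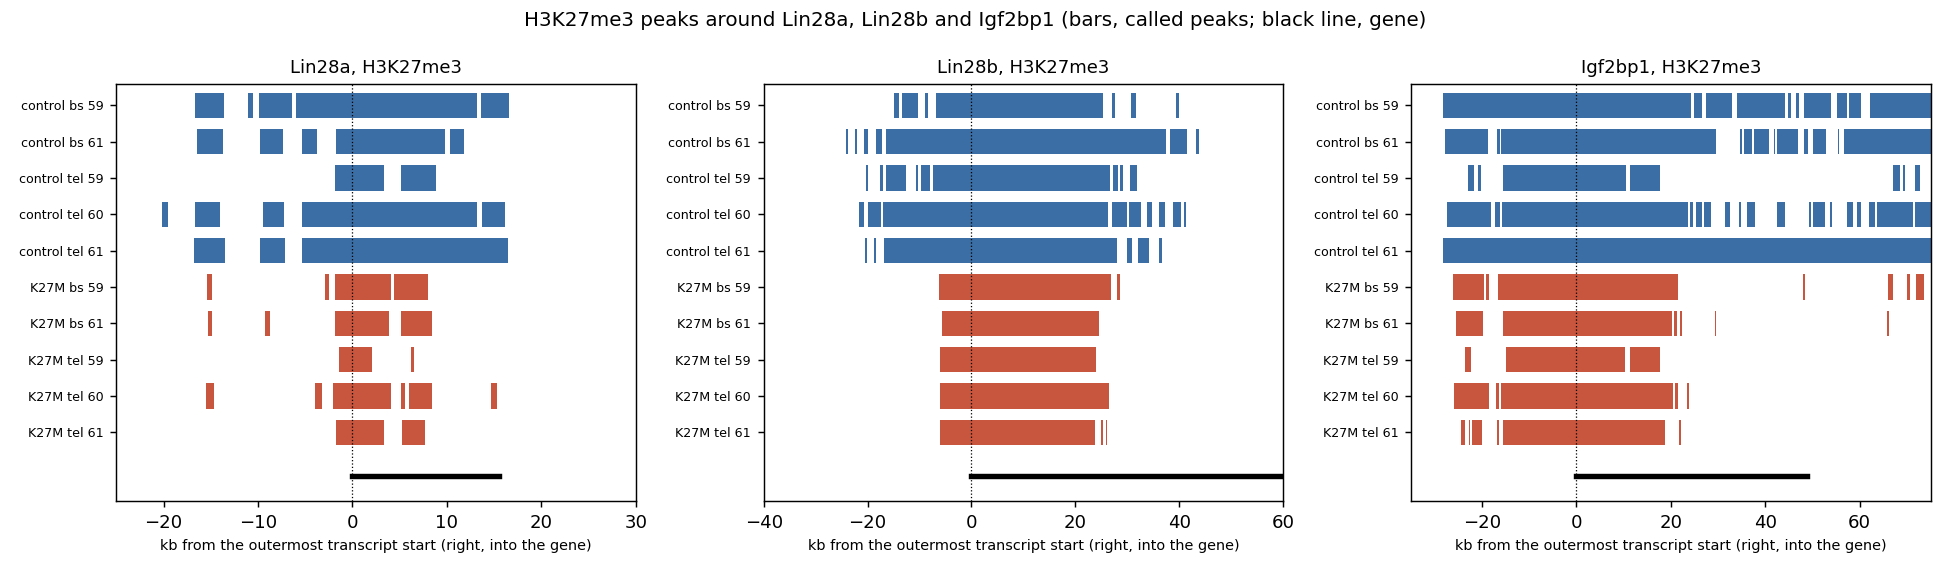
H3K27me3 peaks of 10 cultures around Lin28a, Lin28b and Igf2bp1, drawn as bars against the distance in kb from the outermost transcript start, with the gene as a black line. The K27M bars (red) around each start are shorter than most control bars (blue), and the K27M domains of Lin28b share an upstream edge within 5.59 to 6.16 kb of the start.

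H3K4me3 was called at the Igf2bp1 promoter in telencephalon controls 60 and 61 alone, with 2430 and 2257 bp of the promoter covered at fold enrichments of 8.29 and 5.12. As at Lin28a, the peaks lay wholly inside H3K27me3. With the same number of peaks taken from every library, Igf2bp1 was H3K27me3 only in the telencephalon controls, whereas Lin28a stayed bivalent.

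Igf2bp3 (chr6:49085223-49214957, minus strand), an RNA-binding protein of fetal tissue and of many tumours, was the member whose K27M and control cultures separated in the length of the promoter H3K4me3 peak. The longest promoter H3K4me3 peak was 1761 and 1719 bp in brainstem controls 59 and 61 and 1035, 3807 and 2644 bp in telencephalon controls 59, 60 and 61. In the K27M cultures it was 9467, 7514, 6542, 6215 and 9287 bp. All 5 K27M values lay above all 5 control values, with a mean difference of 5612 ± 1985 bp (SD, n = 5 pairs) and a geometric mean ratio of 3.86 (range 1.63 to 6.32). A separation of this kind was seen at 0.873% of the 15931 genes with H3K4me3 in all 10 cultures (139 genes), at 1 of the 6 members among them, and in the opposite direction at 0 genes. Since these peaks chose the gene, the values are a description.

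**Figure D3:**
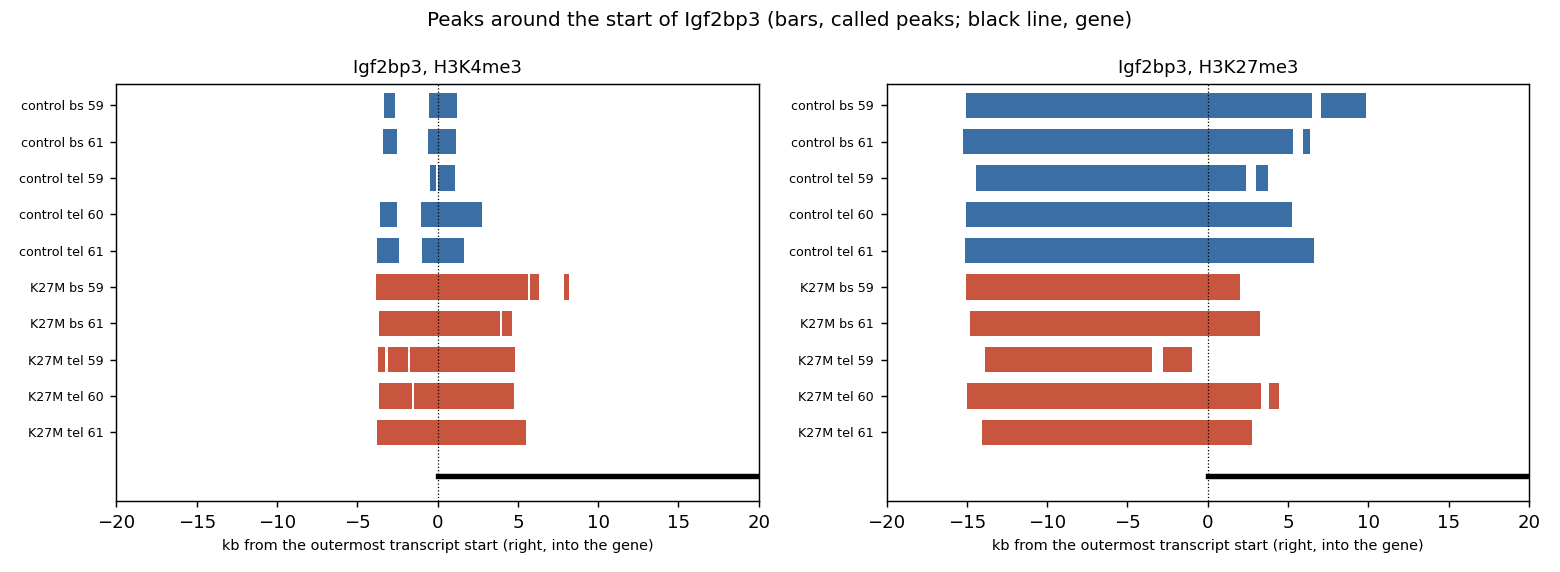
H3K4me3 (left) and H3K27me3 (right) peaks around the start of Igf2bp3 in 10 cultures, against the distance in kb from the outermost start, with the gene as a black line. In K27M cultures (red) H3K4me3 runs from about the small upstream peak of the controls (blue) to beyond the start, and H3K27me3 still covers the upstream side.

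The position of the Igf2bp3 peaks showed where the extra length lay. In 4 of 5 controls a separate peak of 0.646 to 1.38 kb stood upstream of the start and ended at least 2.42 kb before it, and the peak over the start reached 1.06 to 2.80 kb into the gene. In the K27M cultures it reached 3.89 to 5.65 kb into the gene, and in brainstem 59, brainstem 61 and telencephalon 61 it was continuous with the upstream peak. The H3K4me3 peaks lay wholly inside H3K27me3 in 5 of 5 controls, whereas 61.7%, 91.6%, 21.6%, 89.9% and 70.4% of their length did so in the K27M cultures of brainstem 59 and 61 and telencephalon 59, 60 and 61. Fold enrichment of H3K4me3 was higher in K27M in brainstem 59 (21.0 against 6.51), brainstem 61 (13.04 against 3.47) and telencephalon 59 (7.93 against 2.13). It was lower in telencephalon 60 (31.1 against 83.0) and 61 (46.9 against 47.8). The median ratios of these 2 pairs over the 15931 genes with H3K4me3 in all 10 cultures were 0.488 and 0.638. In fold enrichment Igf2bp3 exceeded 1.62%, 0.383%, 3.49%, 64.6% and 37.7% of those genes in controls of the same order. In the matched K27M cultures it exceeded 47.6%, 54.1%, 68.4%, 39.4% and 91.5%, which was lower in telencephalon 60 alone. Its mean K27M to control ratio exceeded that of 99.9% of them.

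H3K27me3 at Igf2bp3 was present in all 10 cultures but short at the start in 1 of them. The longest promoter peak was 21.5, 20.6, 16.8, 20.3 and 21.7 kb in controls and 17.05, 18.1, 1.80, 18.3 and 16.8 kb in K27M. The K27M peak of telencephalon culture 59 measured 1802 bp with a fold enrichment of 2.27 and ended upstream of the start, with a separate 10.4 kb peak further out. That library also had the fewest H3K27me3 peaks, 4739. Outside it, fold enrichment was 1.12 to 1.93 times that of the matched control. The Igf2bp3 promoter holds 21 CpG in 250 bases, and 83.7% of RefSeq promoters hold fewer.
Igf2bp3 promoter, GRCm38, chr6:49214955-49215204, minus strand: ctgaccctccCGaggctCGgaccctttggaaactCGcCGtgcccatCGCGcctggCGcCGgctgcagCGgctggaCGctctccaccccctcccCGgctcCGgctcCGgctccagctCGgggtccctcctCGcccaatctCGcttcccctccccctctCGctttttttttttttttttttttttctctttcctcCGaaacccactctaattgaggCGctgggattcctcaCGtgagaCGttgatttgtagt

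Igf2bp2 (chr16:22059009-22163299, minus strand), the family member that stays expressed in many adult tissues, carried H3K4me3 in every culture and H3K27me3 in 5. The longest H3K4me3 peak was 6568, 3637, 3004, 3854 and 4462 bp in controls and 6377, 4117, 6546, 6530 and 5921 bp in K27M, longer in 4 of 5 pairs. H3K27me3 peaks of 12.9, 4.56 and 9.77 kb touched the promoter in brainstem control 61 and telencephalon controls 59 and 60, and peaks of 5.96 and 0.761 kb in K27M telencephalon cultures 60 and 61. Telencephalon control 61, which had the most H3K27me3 peaks of all libraries (64808), had none there. The bivalent call of Igf2bp2 in the telencephalon was lost with peaks of a fold enrichment of at least 3 and without culture 59 or culture 60. Its promoter had 40 CpG in 250 bases, and 98.7% of RefSeq promoters hold fewer.

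**Figure D4:**
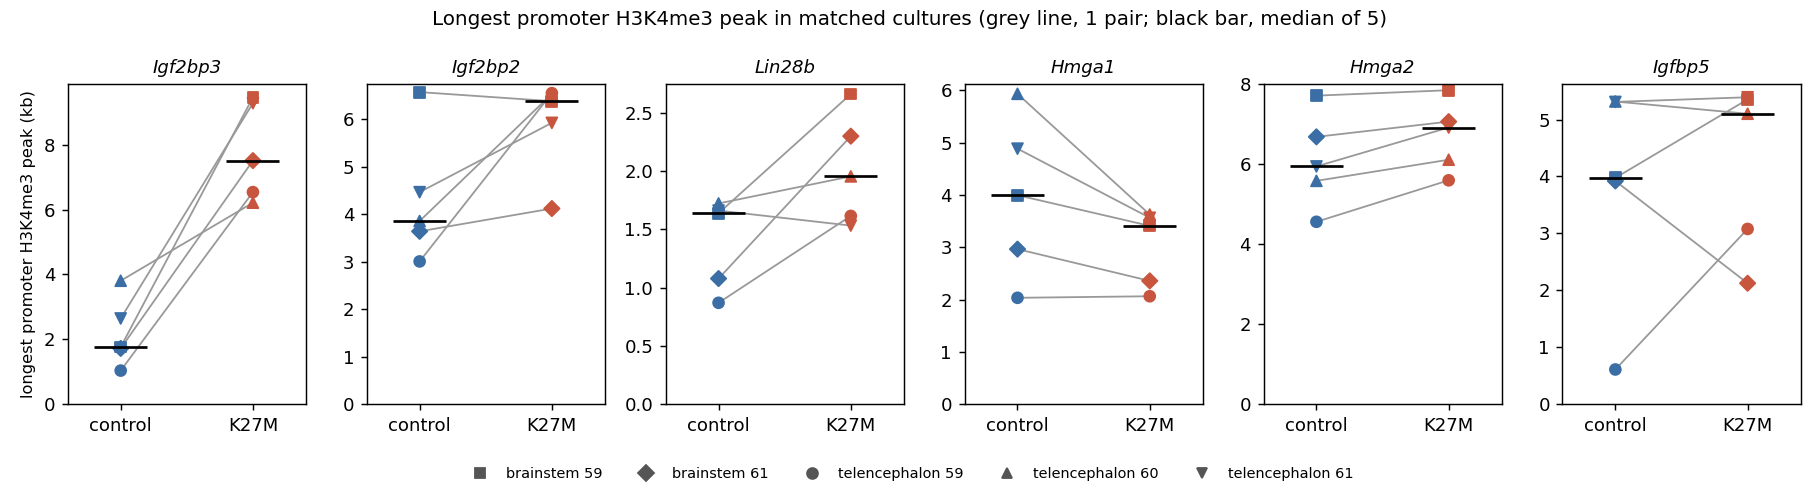
Length of the longest promoter H3K4me3 peak in kb of the 6 members with a peak in all 10 cultures, in control (blue) and K27M (red) cultures, with matched cultures joined by grey lines and medians as black bars. Igf2bp3 is the panel in which the 2 groups do not overlap (1035 to 3807 bp against 6215 to 9467 bp).

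Hmga2 (chr10:120361275-120476469, minus strand) differed from the other members in having no promoter H3K27me3 in any culture. Its H3K4me3 peak was broad, at 7713, 6683, 4559, 5583 and 5944 bp in controls and 7849, 7064, 5596, 6111 and 6916 bp in K27M cultures. The K27M peak was longer in 5 of 5 pairs by 611 ± 386 bp (SD), and the ranges of the 2 groups overlapped. The median ratio over all 15931 genes with the mark in all 10 cultures was 1.07, and that of Hmga2 was 1.11. Within the gene and 20 kb on either side, H3K27me3 was called in brainstem control 61 and telencephalon control 60 alone, as peaks of 0.298 to 1.12 kb at least 95.6 kb into the gene. The promoter is shown as the member without H3K27me3. It has 8 CpG in 250 bases, more than 57.0% of RefSeq promoters.
Hmga2 promoter, GRCm38, chr10:120476470-120476719, minus strand: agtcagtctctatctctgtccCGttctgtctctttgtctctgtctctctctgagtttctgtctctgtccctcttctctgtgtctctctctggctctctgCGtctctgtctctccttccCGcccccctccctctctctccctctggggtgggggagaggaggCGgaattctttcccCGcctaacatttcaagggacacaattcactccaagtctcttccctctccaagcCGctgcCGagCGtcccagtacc

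Hmga1 (chr17:27556497-27563674, plus strand) had H3K4me3 in every culture and a short H3K27me3 peak in 3 controls. The H3K27me3 peak was 1061 bp in brainstem control 59 and 1342 and 1335 bp in telencephalon controls 60 and 61, at fold enrichments of 2.70, 3.79 and 3.10, and no K27M culture had it. Each of these peaks ended upstream of the start. The 3 control libraries with the peak were those with the most H3K27me3 peaks (54227, 49615 and 64808), the other two controls having 25632 and 12715, and the part of that number in the call was not tested. With the same number of peaks taken from each library, Hmga1 was H3K4me3 only in the telencephalon controls. Its H3K4me3 peak was 3995, 2964, 2033, 5933 and 4885 bp in controls and 3409, 2357, 2063, 3625 and 3564 bp in K27M, shorter in 4 of 5 pairs. Hmga1 has a near-identical retrocopy, Hmga1b, so that reads may have been split between the loci, and the values of both are uncertain to that degree. The RefSeq start of Hmga1 has 34 CpG in the 250 bases before it, and 96.5% of promoters hold fewer.

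Igfbp5 (chr1:72857932-72874884, minus strand) had promoter peaks of both marks in every culture. Its mean H3K27me3 fold enrichment was the lowest of the 5 members that always carried this mark (4.45 ± 1.51 in controls and 5.22 ± 1.94 in K27M, SD, n = 5). The longest H3K27me3 peak was 8381, 2863, 3914, 7573 and 8748 bp in controls and 2534, 5068, 2454, 6258 and 3532 bp in K27M, shorter in 4 of 5 pairs. Fold enrichment was 5.34, 3.64, 2.19, 5.84 and 5.23 in controls and 3.94, 5.89, 2.58, 7.41 and 6.29 in K27M, with brainstem culture 59 the pair in which it was lower. The H3K4me3 peak was 609 to 5317 bp in controls and 2124 to 5392 bp in K27M, with ranges that overlapped. Its promoter has 10 CpG in 250 bases, and 62.2% of RefSeq promoters hold fewer.

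**Figure D5:**
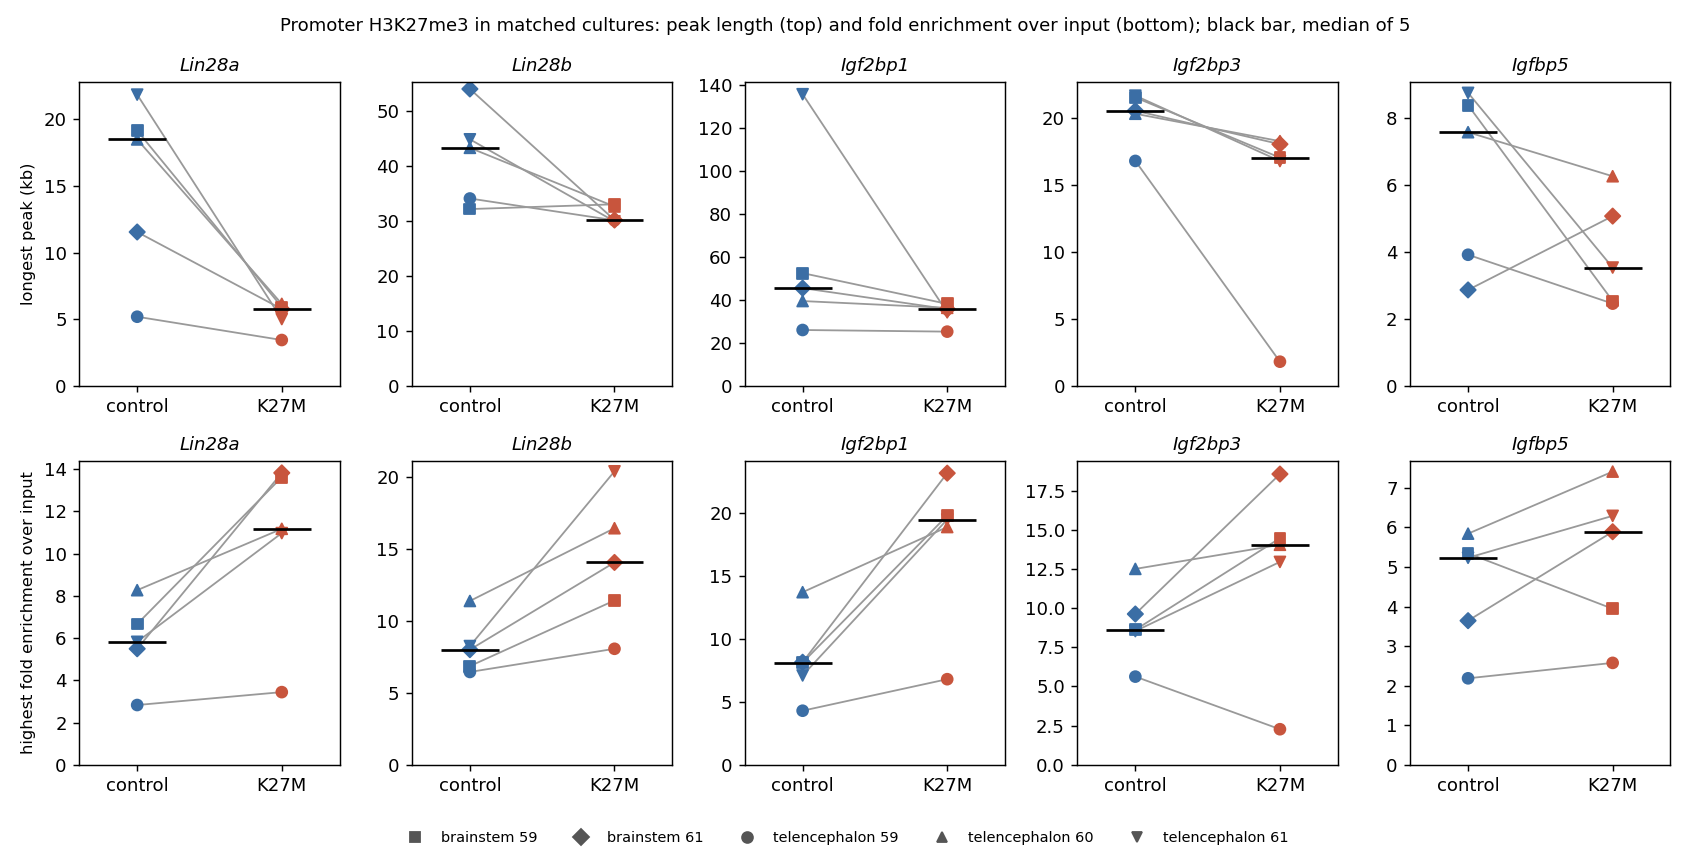
Longest promoter H3K27me3 peak in kb (top) and its highest fold enrichment over input (bottom) for the 5 members with a peak in all 10 cultures, in control (blue) and K27M (red) cultures, with matched cultures joined by grey lines and medians as black bars. Lin28a, Lin28b and Igf2bp1 are higher in fold enrichment in 5 of 5 pairs, and Lin28a, Igf2bp1 and Igf2bp3 are shorter in 5 of 5.

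The shorter and more enriched H3K27me3 peaks of K27M cultures were also seen at the median gene. Of the 1820 genes with promoter H3K27me3 in all 10 cultures, the longest peak was shorter in K27M in all 5 pairs at 43.8%, and at 3 of the 5 members among them (Lin28a, Igf2bp1 and Igf2bp3). The highest fold enrichment was higher in all 5 pairs at 46.4%, and at 3 of 5 members (Lin28a, Lin28b and Igf2bp1). The median ratios of K27M to control over these genes were 0.717 for length and 1.34 for fold enrichment. Among the members the ratios of length were 0.379, 0.761, 0.663, 0.553 and 0.645 for Lin28a, Lin28b, Igf2bp1, Igf2bp3 and Igfbp5, and those of fold enrichment 1.74, 1.67, 2.11, 1.17 and 1.16. A fold enrichment is relative to the other reads of its library and was not scaled to the Drosophila spike-in, so a higher value does not show more H3K27me3 per cell. It is also a single value for a whole called peak. Shorter K27M peaks and longer control peaks were thus not compared over the same bases, and length and fold enrichment are not independent measures.

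The place of a member among these 1820 genes does not change with a factor common to all fold enrichments of a library. Whether it changes with depth or peak number was not tested. Igf2bp3 exceeded 85.9% and 94.3% of them in fold enrichment in brainstem controls 59 and 61, and 96.6%, 74.0% and 82.2% in telencephalon controls 59, 60 and 61. In the matched K27M cultures it exceeded 71.5%, 72.9%, 13.6%, 69.1% and 64.4%, which was lower in 5 of 5 pairs although the fold enrichment itself was higher in 4. Lin28a went the other way and stood higher in K27M in 5 of 5 pairs, at 50.4% to 69.3% against 40.8% to 61.0% in controls, with a gap of 0.385 percentage points in telencephalon culture 59. Lin28b stood lower in 4 of 5 pairs, Igf2bp1 in 3 of 5 and Igfbp5 in 1 of 5. The place depends on the genes ranked. Among all genes with a promoter peak in the library itself, a larger set in controls, Lin28a, Lin28b, Igf2bp1 and Igf2bp3 all stood lower in K27M in 5 of 5 pairs, Lin28a by a mean of -8.83 ± 4.88 percentage points (SD, n = 5 pairs), and Igfbp5 in 3 of 5. The direction for Lin28a was thus opposite by the 2 rankings.

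Among the 15931 genes with H3K4me3 in all 10 cultures, the K27M to control ratio of the longest peak was 3.86 at Igf2bp3, and 99.99% of the genes had a lower one. The mean ratios of Lin28b (1.46, range 0.922 to 2.13) and Igf2bp2 (range 0.971 to 2.18) exceeded those of 98.7% and 98.0% of genes, and both were above 1 in 4 of 5 pairs. Hmga1 (0.790) stood at the other end, with 0.835% of genes lower. The Igfbp5 ratio of 1.29 held a value of 5.05 from telencephalon culture 59, the others being 0.542 to 1.35.

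All 8 members shared a feature that the choice of genes did not read from these libraries, a match to the let-7 seed in the 3′ UTR. The 9 let-7 family 5p microRNAs in RefSeq share the seed GAGGUAG at bases 2 to 8 (capitals), of which let-7a is shown.
mmu-let-7a-5p: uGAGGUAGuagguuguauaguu

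Its complement, CTACCTC, was searched on the transcript strand of the longest annotated 3′ UTR of each gene and occurs in 8.75% of 21697 genes. Igf2bp1, Lin28b and Hmga2 have 4 sites each, Lin28a has 2, and Igf2bp2, Igf2bp3, Hmga1 and Igfbp5 have 1. Among 3′ UTRs within 25% of the same length, 4 or more sites occur in 0.138% for Hmga2, 0.238% for Lin28b and 0.264% for Igf2bp1, and 1 or more in 23.6% for Igfbp5 and 8.13% for Hmga1. Several members are well-known let-7 targets and may have been listed together for that reason. A match is a description of sequence and no evidence of repression in these cells. The sites below, 1 each from both Lin28 genes, Igf2bp1, Igf2bp3 and Hmga2, carry the seed match in capitals and are given in transcript orientation on GRCm38.
Lin28a, chr4:134005179-134005207: agcctgttgaaCTACCTCatttttgccga
Lin28b, chr10:45381012-45381040: gggcgggaagtCTACCTCatgcaagcaca
Igf2bp1, chr11:95961768-95961796: tgcgaagtaaaCTACCTCaaggtgtgaag
Igf2bp3, chr6:49086777-49086805: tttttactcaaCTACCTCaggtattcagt
Hmga2, chr10:120364214-120364242: acattcaatttCTACCTCagcatcagttg

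The genes that make microRNAs and that act on let-7 carried H3K4me3. Of 22 listed genes of the let-7 pathway, 10 were H3K4me3 only in the controls of each region (26.4% and 25.7% of all genes in brainstem and telencephalon), among them Drosha, Dgcr8, Dicer1 and Xpo5, which make microRNAs, and Dis3l2, Tut4 and Tut7, which act on let-7 precursors bound by Lin28. The 7 genes unmarked in telencephalon controls were all let-7 microRNA genes, whose annotated start is the hairpin and not the start of the primary transcript. Bivalent genes of the list numbered 2 in the brainstem and 3 in the telencephalon, beside 4.60% and 7.31% of all genes. Trim71 and Arid3b, both known let-7 targets, were bivalent in both regions and carried H3K27me3 and H3K4me3 in 10 of 10 cultures. Hmga1b was unmarked in the brainstem controls and bivalent in the telencephalon controls, with H3K27me3 in 3 of 5 controls and 0 of 5 K27M cultures. None of the genes of this list with H3K27me3 in every control of a region lost it in all K27M cultures there (0 of 2 in each region, beside 35.0% and 17.8% of all such genes).

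Of 19 genes of the insulin-like growth factor axis, 5 were bivalent in the brainstem controls and 6 in the telencephalon controls, beside 4.60% and 7.31% of all genes. Igfbp4, a binding protein, Igfals, the serum carrier subunit, and Stc1, an inhibitor of the protease that cleaves Igfbp4, had H3K27me3 in every brainstem control and in no K27M culture of either region. Those control peaks were weak, with fold enrichments of 2.33 and 2.58 at Igfbp4, 2.68 and 3.06 at Igfals, and 2.29 and 2.69 at Stc1. Pappa2, a protease for binding proteins, had H3K27me3 in all 3 telencephalon controls and in none of the K27M cultures there, but had peaks of 416 and 339 bp in the brainstem K27M cultures. Igfbp4 and Stc1 were bivalent in the telencephalon controls alone, although both had promoter peaks of each mark in the brainstem controls too. Igf1r, the receptor, was bivalent in the brainstem controls alone, through a 29.5 kb H3K27me3 peak of culture 61. The other brainstem control had no H3K27me3 peak at an Igf1r promoter, since the consensus counted overlap anywhere along a peak. In all, 3 of 9 genes of the list with H3K27me3 in every brainstem control and 1 of 4 in the telencephalon had none in K27M, beside 35.0% and 17.8% of all genes.

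Of 15 other oncofetal and growth genes, 4 were bivalent in the brainstem and 5 in the telencephalon controls (4.60% and 7.31% of all genes). Gpc3, Sall4, Plag1 and Dlk1 were bivalent in both regions and carried H3K27me3 in 10 of 10 cultures. Plagl1, an imprinted zinc finger gene, was H3K4me3 only in the brainstem and bivalent in the telencephalon, with H3K27me3 in 5 of 5 controls and 2 of 5 K27M cultures. The brainstem call thus does not mean that H3K27me3 was absent from the brainstem controls. None of the 5 genes of this list with H3K27me3 in every control of a region lost it in all K27M cultures there, beside 35.0% and 17.8% of all such genes.

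For the members whose H3K27me3 varied between cultures, the genes with the most similar pattern were sought over the 10 values of promoter H3K27me3 fold enrichment, with 0 where there was no peak. For Igf2bp2 these were Jag1, A830031A19Rik and Sall1, with Pearson's r of 0.834, 0.822 and 0.807 over 10 libraries. For Hmga1 these were Fkbp5, Rhd and Bcl11b, each marked in 3 of 5 controls and 0 of 5 K27M cultures, with r of 1.00 over 10 libraries of which 7 were at 0. The libraries share depth and peak number, and the correlations are descriptions.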

How the data were processed

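Peak lists of 20 ChIP-seq libraries, 10 for each mark, entered the analysis, and other data types were not used here. Reads had been mapped by the authors with BWA (0.7.17-r1188), mm10 being the genome, and they ran MACS2 (2.2.7.1) on every library with its matched input, in broad mode for H3K27me3 and narrow mode for H3K4me3, without the Drosophila spike-in. Per peak, the deposited columns are the fold enrichment (a ratio to input), a −log10 p-value and a −log10 q-value. They hold no read counts, so counting intervals are not given, and signal that passed no peak threshold was not seen. The paper lists total and duplicate reads per library, and duplicates were kept in its peak calling. Those read counts were used here only to compare the shares of duplicate reads between H3K4me3 libraries. The part of depth and duplicates in the peak calls was not tested.

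Promoters were taken from the GENCODE M21 annotation of GRCm38, which is mm10 (55450 genes, 132758 distinct promoters), and a peak counted from 1 bp of overlap. Consensus peaks of controls were built as in MSPC, from at least 2 cultures, with p-values (stringent, then weak) of 1e-10 and 1e-06 in H3K4me3 libraries and of 1e-08 and 0.0001 in H3K27me3 libraries, rewritten in Python 3.11.15 (numpy 2.4.6, pysam 0.24.0) and tested on simulated data. A gene was bivalent where consensus peaks of both marks touched the same promoter. A gene called H3K4me3 only can therefore hold H3K27me3 at another of its promoters or outside the consensus. Where the promoters of a gene differed, bivalent took precedence over H3K4me3 only, then H3K27me3 only, then unmarked. Values are those of the longest or the most enriched peak that touched a promoter.

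Differences between genotypes were taken within the 5 culture pairs, described by the paper as matched. Culture numbers 59 and 61 each gave a pair in both regions, so the 5 pairs may not be independent, and SDs treat them as if they were. Deviations of H3K4me3 promoter coverage from the group means correlated between matched libraries with r = 0.616 (culture 59), 0.328 (60) and 0.350 (61) for the telencephalon, and r = -0.042 for the brainstem. For H3K27me3 the values were 0.407 (59), 0.272 (60) and -0.174 (61), and 0.00679 for the brainstem, so the files do not show pairing for every culture. No test was made, because the members were chosen on these peaks. Even with 5 independent pairs a two-sided exact sign-flip test could not go below p = 0.0625. Members and gene lists were chosen with earlier results of these data known. Genes beyond the members were named where H3K27me3 was in every control and no K27M culture of a region, or where a gene was bivalent in 1 region alone, and listed examples otherwise.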

Additional observations from a re-analysis of the deposited data

How the results depend on the processing

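The number of members bivalent in the telencephalon controls was 7, and 3 to 6 when 1 culture was left out. It was 3 when a peak was required in every control culture. In the brainstem controls it was 3, and 5 when a peak in at least 1 control culture sufficed. With 1 brainstem culture left out no consensus could be formed, so that value is not given. The count of members with H3K27me3 in every control and no K27M culture was 0 in each region, and 0 to 1 in the telencephalon and 1 in the brainstem when 1 culture was left out. The member concerned was Igf2bp2 without brainstem culture 59 and Hmga1 without brainstem culture 61 or telencephalon culture 59. Without the replicate block, group means were compared within each region and the regions were then averaged with equal weight. K27M minus control was then -0.833 members for H3K27me3 and -0.667 for H3K4me3. Within a region a difference of group means equals the mean over its pairs. These values therefore differ from -0.8 through the weights of the regions and do not show the part of pairing. The other alternatives (stricter peaks, equal peak numbers, a narrower promoter, a longer overlap, starts of protein-coding transcripts alone) left the counts over the members within 1.5 times of those reported. The difference in members with H3K4me3, -0.8 with an SD of 1.10, was 0 (SD 2.45) with peaks of a fold enrichment of at least 3, -0.2 with starts of protein-coding transcripts alone, and -1 to -0.5 when 1 culture was left out. That for H3K27me3 lay between -1.2 and -0.6 under all alternatives. For single members, the covered promoter length moved by more than 1 SD in 3 recalculations and by less in 189. The K27M minus control difference in H3K4me3 at Igf2bp3 was 930 bp and became 220 bp in the narrower promoter. That of Igf2bp2 went from 132 to 630 bp, and that of H3K27me3 at Lin28a from -32.4 to 568 bp, with peaks of a fold enrichment of at least 3. Peak lists carry no reads below the threshold, so an absent peak shows no absence of the mark, and the number of peaks differed most where H3K27me3 was compared between genotypes.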
